A study of Homo sapiens with 40 samples.

Results

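The epithelial-mesenchymal state genes described here are 10 genes: CDH1, EPCAM, ESRP1, ESRP2, CDH2, VIM, ZEB1, ZEB2, SNAI2 and TWIST1. They were taken by symbol from the 58336 genes of the authors' deposited table of comparisons, with earlier results of these data known. Each symbol matched 1 gene. The 40 RNA libraries came from 10 human lines of non-small cell lung cancer. Each line had 2 libraries with the vehicle dimethyl sulfoxide (DMSO) and 2 with GSK3368712, labelled GSK712, which blocks the type I arginine methyltransferases such as PRMT1. The row labels place EBC1, LK2, NCIH226, NCIH520, SKMES1 and SW900 in lung squamous cell carcinoma (LUSC), and NCIH1563, NCIH1975, NCIH522 and PC9 in lung adenocarcinoma (LUAD). The labels used here name no genetic change in any line, and no dose or time is spelled out. Each sample title ends in the tag D5, whose meaning is not given. Nor do the labels tell if both libraries of an arm were grown as separate cultures, so the authors' p-values measure only the spread between these libraries.

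Epithelial cells hold together through E-cadherin junctions and carry surface proteins such as EPCAM. In an epithelial-mesenchymal transition, repressors of the ZEB, SNAI and TWIST families bind E-box sequences and lower CDH1, while N-cadherin and vimentin are made. ESRP1 and ESRP2 splice many transcripts into their epithelial forms, and the ZEB factors repress them. In lung cancer lines this state varies widely and is often partial. MicroRNAs of the miR-200 family hold the ZEB mRNAs low in epithelial cells, and the ZEB factors in turn repress the miR-200 genes.

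The microRNAs themselves were not analysed here, but a transcript of their locus was. MIR200CHG, named as the host gene of MIR200C and MIR141, had values in 6 lines, and ESRP1 had values in each of those 6. The mature sequences are shown because the ZEB transcripts, which have values in few of the lines, are the best-known targets of this family. Both come from RefSeq (GRCh38.p14, plus strand, chr12:6963742-6963764 and chr12:6964155-6964176). Capitals mark the seed, bases 2 to 8:
hsa-miR-200c-3p: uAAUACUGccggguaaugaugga
hsa-miR-141-3p: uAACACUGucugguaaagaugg
The complement of the first seed, CAGTATT, occurs 6 times in the longest annotated 3′ UTR of ZEB1 and 5 times in that of ZEB2 (GENCODE 29). At least 1 such match was found in 16% of 19033 genes, and as many as in ZEB1 in 0.0158% of them. The UTRs are 2549 and 5370 bases long, against a median of 1090, and the counts were not adjusted for length. The complement of the second seed, CAGTGTT, occurs 3 times in ZEB1 and 4 times in ZEB2. The first match of CAGTATT in each UTR, in capitals, reads:
ZEB1: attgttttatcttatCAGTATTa
ZEB2: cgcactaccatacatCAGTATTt
A match of letters is a description and shows no binding.

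Of 100 possible combinations of gene and line, 69 had a value. The authors removed a gene from a comparison when it did not exceed an FPKM (a read count per transcript length and depth) of 1, per the labels, so a gene without a value is read as listed below that filter. Between 12721 and 14565 genes had values in a line. VIM was the one member with values in all 10 lines. Levels are given as mean normalized counts over both arms, per 1000000 of the line's summed counts, written CPM below. They are not per length, so they compare lines for a gene and not genes with each other. Each line was normalized separately by the authors, so levels across lines are a description. In bulk RNA, fewer cells making a transcript and less of it per cell cannot be told apart.

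**Figure D1:**
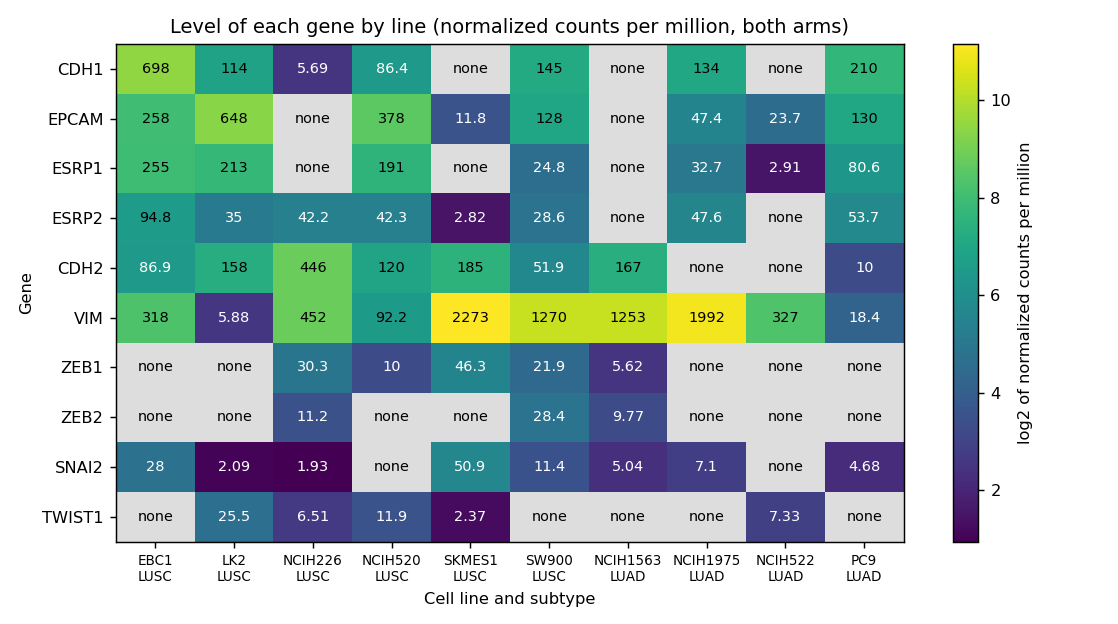
Level of each of the 10 genes (rows) in each of the 10 lines (columns, with subtype), as normalized counts per 1000000 over both arms, with colour on a log2 scale and grey for no value. VIM runs from 5.88 in LK2 to 2273 in SKMES1, and ZEB2 has a value in NCIH226, SW900 and NCIH1563 only.

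The epithelial adhesion genes stood high in 6 lines and low or without a value in 4. CDH1 (ENSG00000039068, GRCh38 chromosome 16, 68737225 to 68835548), which encodes E-cadherin, was highest in EBC1 at 698 CPM. It followed at 210 in PC9, 145 in SW900, 134 in NCIH1975, 114 in LK2 and 86.4 in NCIH520, and stood at 5.69 in NCIH226. CDH1 had no value in SKMES1, NCIH1563 or NCIH522. The neighbours SW900 and NCIH1975, and NCIH1975 and LK2, differed by less than the limit that the authors' standard errors set (log2 gaps of 0.11 and 0.23 against limits of 0.30 and 0.29).

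EPCAM (ENSG00000119888, chromosome 2, 47345158 to 47387601), a surface adhesion protein of epithelia, was highest in LK2 at 648 CPM. The other levels were 378 in NCIH520, 258 in EBC1, 130 in PC9, 128 in SW900, 47.4 in NCIH1975, 23.7 in NCIH522 and 11.8 in SKMES1. PC9 and SW900 differed by less than their limit (log2 gap 0.02, limit 0.27), and EPCAM had no value in NCIH226 or NCIH1563. The 2 adhesion genes thus ranked the lines differently: LK2 led for EPCAM and was below 4 other lines for CDH1.

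The splicing regulators were spread in a similar way. ESRP1 was highest in EBC1 at 255 CPM, with 213 in LK2, 191 in NCIH520, 80.6 in PC9, 32.7 in NCIH1975, 24.8 in SW900 and 2.91 in NCIH522. NCIH1975 and SW900 were within their limit. ESRP1 had no value in NCIH226, SKMES1 or NCIH1563. ESRP2 stood at 94.8 in EBC1, 53.7 in PC9, 47.6 in NCIH1975, 42.3 in NCIH520, 42.2 in NCIH226, 35 in LK2 and 28.6 in SW900, and at 2.82 in SKMES1. From PC9 to NCIH226, neighbouring ESRP2 levels differed by less than their limits. NCIH226 therefore had ESRP2 in the range of the epithelial lines while ESRP1 had no value there. The epithelial transcription factor genes GRHL2 and OVOL2 had values in the same 6 lines as MIR200CHG, all of which also had ESRP1.

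The mesenchymal structural genes overlapped with the epithelial ones in several lines. VIM (ENSG00000026025, chromosome 10, 17228259 to 17237593), the intermediate filament protein vimentin, stood at 2273 CPM in SKMES1, 1992 in NCIH1975, 1270 in SW900 and 1253 in NCIH1563. Its level was 452 in NCIH226, 327 in NCIH522, 318 in EBC1, 92.2 in NCIH520, 18.4 in PC9 and 5.88 in LK2, so the highest line exceeded the lowest by 387 times. Neighbours in this order that did not differ beyond their limits were SKMES1 and NCIH1975, SW900 and NCIH1563, and NCIH522 and EBC1. NCIH1975 and SW900 held high VIM together with CDH1 above 130 CPM.

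CDH2 (ENSG00000170558, chromosome 18, 27950966 to 28177446), which encodes N-cadherin, was highest in NCIH226 at 446 CPM. It stood at 185 in SKMES1, 167 in NCIH1563, 158 in LK2, 120 in NCIH520, 86.9 in EBC1, 51.9 in SW900 and 10 in PC9. SKMES1, NCIH1563 and LK2 were neighbours within their limits, and NCIH1975 and NCIH522 had no value. LK2 thus combined the highest EPCAM and the lowest VIM of the lines with a level of CDH2 near that of NCIH1563.

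Of the members, ZEB2, ZEB1 and TWIST1 had the fewest values, in 3, 5 and 5 lines, while SNAI2 had values in 8. ZEB1 stood at 46.3 CPM in SKMES1, 30.3 in NCIH226, 21.9 in SW900, 10 in NCIH520 and 5.62 in NCIH1563. ZEB2 stood at 28.4 in SW900, 11.2 in NCIH226 and 9.77 in NCIH1563. NCIH226 and NCIH1563 did not differ beyond their limit for ZEB2. The 3 lines with a ZEB2 value also had ZEB1. Of the 7 lines with an ESRP1 value, 5 had no ZEB1 value, and all 3 lines without ESRP1 had one.

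SNAI2 (Slug), a zinc finger repressor, ranged from 1.93 CPM in NCIH226 to 50.9 in SKMES1, with the next highest value, 28, in EBC1. The SNAI2 levels of NCIH1975, NCIH1563 and PC9 (7.1, 5.04 and 4.68) were neighbours within their limits, as were LK2 and NCIH226. TWIST1, a basic helix-loop-helix factor, was highest in LK2 at 25.5, followed by 11.9 in NCIH520, 7.33 in NCIH522, 6.51 in NCIH226 and 2.37 in SKMES1. NCIH522 and NCIH226 were within their limit for TWIST1. The highest TWIST1 level therefore belonged to the line with the highest EPCAM. Of 7 ZEB1 promoter windows in the RefSeq table, 2 held the E-box letters CACCTG on either strand, and none did in the windows of CDH2, VIM and ZEB2, against 20.6% of all 35116 windows of that length. The promoters of CDH1 and the remaining members were not searched.

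The ratio of CDH1 to VIM counts within a line does not depend on the scaling between lines. Its log2 value was 4.28 in LK2, 3.52 in PC9, 1.13 in EBC1, −0.09 in NCIH520, −3.13 in SW900, −3.89 in NCIH1975 and −6.31 in NCIH226. The log2 ratio of EPCAM to VIM ran from 6.79 in LK2 to −7.58 in SKMES1. Of the lines with both genes, NCIH520 had a log2 ratio of ESRP1 to ZEB1 of 4.25 and SW900 of 0.18.

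The labelled subtype was checked against lineage markers. Of 9 squamous markers, between 1 and 3 had values in each LUSC line, and 5 did in PC9, a LUAD line. TP63 had values in 2 of the 6 LUSC lines, SKMES1 and SW900. Of 10 glandular markers, SW900 had 7, among them NKX2-1 and SFTPB, and NCIH226, NCIH1563, NCIH522 and PC9 had MUC1 alone. The members' differences below are therefore given by line, with subtype as labelled. Of 6 leukocyte markers, CD68 had values in 8 lines, CD14 in SW900 and NCIH1975 and LYZ in NCIH520, while PTPRC and CD3E had no value in any line. Their summed level ran from 0 in LK2 to 181 CPM in NCIH1975, and its part in the results was not tested.

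The question of the comparison within each line was which of these genes changed with GSK3368712. Positive log2 fold changes are taken to mean more RNA with GSK3368712. That direction follows the row labels' naming order, which no value can check. A gene is called when the authors' DESeq2 adjusted p is at most 0.05. Of the 69 entries in the authors' deposited table, 19 were called, 7 higher and 12 lower, which is 27.5%. Over all genes and lines the share called was 27.5% too, so the members were called no more often than other genes. Of the 19, only VIM in NCIH1563, ZEB2 in NCIH226 and ESRP1 in NCIH1975 changed by at least 1 on the log2 scale, which 6.02% of all entries did with a call.

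**Figure D2:**
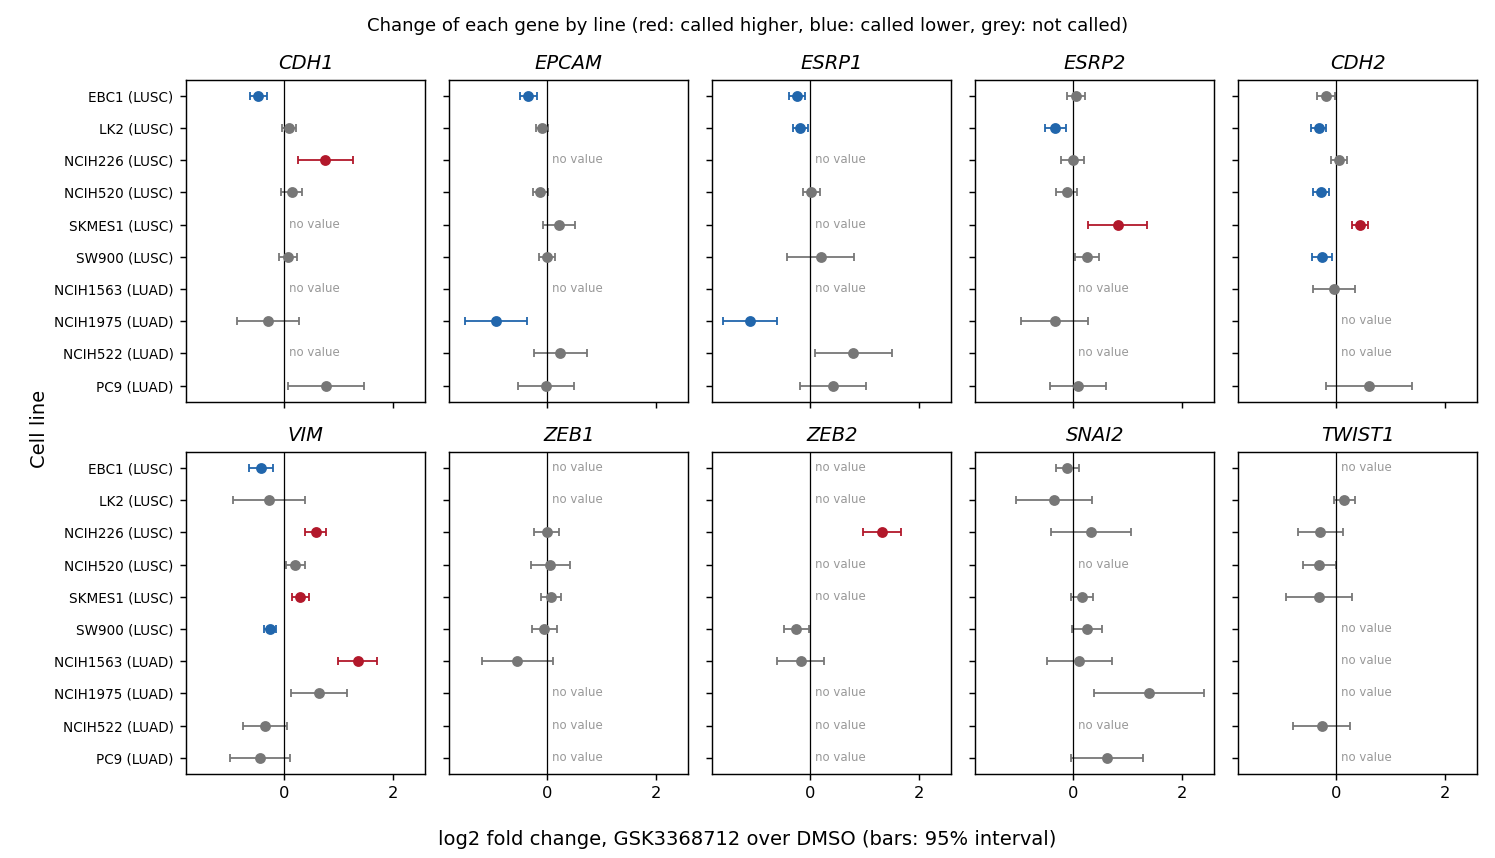
The log2 fold change of each gene (panels) in each line (rows), GSK3368712 over DMSO, as points with 95% intervals from the authors' standard errors, red where called higher, blue where called lower and grey where not called. VIM is called higher in NCIH226, SKMES1 and NCIH1563 and lower in EBC1 and SW900.

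VIM changed in opposite directions between lines. It rose by 1.35 ± 0.18 (log2 fold change ± standard error, DESeq2 adjusted p = 1.9e-12) in NCIH1563 in the authors' deposited table. The 2 arm means that the table implies there are 71031 normalized counts with DMSO and 181192 with GSK3368712. VIM also rose in NCIH226, by 0.58 ± 0.101 (DESeq2 adjusted p = 1.82e-07), and in SKMES1, by 0.30 ± 0.076 (DESeq2 adjusted p = 0.00063), in the authors' deposited table. It fell in EBC1, by 0.42 (DESeq2 adjusted p = 0.000845), and in SW900, by 0.255 (DESeq2 adjusted p = 5.47e-05), in the authors' deposited table. The remaining values in the authors' deposited table were 0.64 in NCIH1975, 0.20 in NCIH520, −0.28 in LK2, −0.35 in NCIH522 and −0.45 in PC9, none called. The 95% interval of the value in NCIH1975 ran from 0.12 to 1.15, with an adjusted p of 0.13.

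CDH2 changed less. It rose by 0.44 ± 0.074 (DESeq2 adjusted p = 5.72e-08) in SKMES1 in the authors' deposited table. It fell by 0.32 in LK2, by 0.28 in NCIH520 and by 0.26 in SW900 (DESeq2 adjusted p = 3.83e-05, 0.00282 and 0.0189) in the authors' deposited table. The values not called in the authors' deposited table were −0.19 in EBC1 (DESeq2 adjusted p = 0.0507), −0.04 in NCIH1563, 0.04 in NCIH226 and 0.60 in PC9. SKMES1 was the line in which both mesenchymal structural genes were called higher, and SW900 the line in which both were called lower. By sign alone, VIM and CDH2 were also both below 0 in EBC1 and LK2 and both above 0 in NCIH226. Of these, VIM alone was called in EBC1 and NCIH226, and CDH2 alone in LK2.

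CDH1 was called in 2 lines, in opposite directions. It fell by 0.47 ± 0.081 (DESeq2 adjusted p = 4.1e-08) in EBC1, where its level was highest, in the authors' deposited table. It rose by 0.76 ± 0.257 (DESeq2 adjusted p = 0.0133) in NCIH226, the lowest of the 7 lines with a CDH1 value, in the authors' deposited table. The implied arm means were 52226 and 37601 normalized counts in EBC1 and 244 and 412 in NCIH226. The rise thus left CDH1 far below the other lines with values. SKMES1, NCIH1563 and NCIH522 had none. In PC9 the authors' deposited table lists 0.76 as well, with a 95% interval from 0.07 to 1.46 and an adjusted p of 0.216. The values not called in LK2, NCIH520, SW900 and NCIH1975 were 0.09, 0.135, 0.07 and −0.29 in the authors' deposited table.

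EPCAM fell by 0.94 ± 0.294 in NCIH1975 and by 0.35 ± 0.079 in EBC1 (DESeq2 adjusted p = 0.0241 and 4.87e-05) in the authors' deposited table. The implied means in NCIH1975 were 5695 normalized counts with DMSO and 2971 with GSK3368712. In the other 6 lines with values, EPCAM lay between −0.13 in NCIH520 and 0.24 in NCIH522 in the authors' deposited table and was not called.

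ESRP1 fell in 3 lines and was called higher in none. It fell by 1.10 ± 0.254 (DESeq2 adjusted p = 0.000674) in NCIH1975, by 0.24 in EBC1 (adjusted p = 0.00453) and by 0.18 in LK2 (adjusted p = 0.028) in the authors' deposited table. Values not called were 0.795 in NCIH522, 0.415 in PC9, 0.19 in SW900 and 0.02 in NCIH520 in the authors' deposited table. ESRP2 rose by 0.815 ± 0.278 (DESeq2 adjusted p = 0.0145) in SKMES1, from an implied 127 to 223 normalized counts, in the authors' deposited table. It fell by 0.33 in LK2 (DESeq2 adjusted p = 0.00443) in the authors' deposited table. Its other 6 values lay between −0.34 in NCIH1975 and 0.26 in SW900 in the authors' deposited table.

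Among the transcription factors, 1 of 21 entries was called, against 27.5% of all entries. Some of the 21 had few counts and wide standard errors, such as SNAI2 in NCIH226 (111 normalized counts, standard error 0.371). Others were better measured, such as SNAI2 in SKMES1 (3149 and 0.100). A missing call is therefore not read as a missing change. ZEB2 (ENSG00000169554, chromosome 2, 144364364 to 144524583) rose by 1.32 ± 0.178 (DESeq2 adjusted p = 4.98e-12) in NCIH226 in the authors' deposited table, from an implied 370 to 925 normalized counts. In SW900 and NCIH1563 ZEB2 stood at −0.26 and −0.18 in the authors' deposited table. ZEB1 in NCIH226 stood at −0.01 (95% interval −0.24 to 0.21) in the authors' deposited table, and in its other 4 lines between −0.55 in NCIH1563 and 0.06 in SKMES1. NCIH226 was thus a line in which CDH1, VIM and ZEB2 were all called higher.

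SNAI2 was called in 0 of 8 lines. Its value of 1.39 in NCIH1975 had the largest standard error of all the members' entries, 0.513, with an adjusted p of 0.073 in the authors' deposited table. The other values were 0.62 in PC9, 0.33 in NCIH226, 0.255 in SW900, 0.16 in SKMES1, 0.11 in NCIH1563, −0.11 in EBC1 and −0.35 in LK2 in the authors' deposited table. TWIST1 was called in 0 of 5 lines. It stood at −0.32 in SKMES1, −0.31 in NCIH520, −0.29 in NCIH226, −0.27 in NCIH522 and 0.15 in LK2 in the authors' deposited table.

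Read by line, none of the 8 lines with calls had members called in both directions. NCIH520 and NCIH1563 had 1 called member each and could not show both directions. SW900 and NCIH1975 had 2 each, and whether this exceeds chance was not tested. In EBC1, CDH1, EPCAM, ESRP1 and VIM fell (4 of 7 members with values), where 23.4% of all genes were called lower and 23.0% higher. LK2 had lower ESRP1, ESRP2 and CDH2 (3 of 8), with 19.5% of all genes lower and 19.9% higher. SW900 had lower CDH2 and VIM (2 of 9), with 17.7% lower and 18.0% higher. NCIH520 had lower CDH2 alone (1 of 8), with 12.3% lower and 11.4% higher. NCIH1975 had lower EPCAM and ESRP1 (2 of 6), with 3.58% lower and 4.33% higher. In NCIH226, CDH1, VIM and ZEB2 rose (3 of 8), with 15.5% of all genes higher and 15.8% lower. In SKMES1, ESRP2, CDH2 and VIM rose (3 of 7), with 15.8% higher and 15.6% lower. NCIH1563 had higher VIM alone (1 of 5), with 23.3% higher and 24.8% lower. No member was called by DESeq2 in NCIH522, where 0.912% of all genes were higher and 0.750% lower, nor in PC9, where 2.56% were higher and 1.92% lower. Epithelial and mesenchymal members were called in the same direction within EBC1, LK2, NCIH226 and SKMES1. In NCIH1975, where EPCAM and ESRP1 fell, VIM and SNAI2 stood at 0.64 and 1.39 in the authors' deposited table, not called, and the log2 ratio of EPCAM to VIM changed by −1.57.

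The next comparison asked whether a member changed on average, with each line taken as 1 replicate. Of the 9 members with values in at least 5 lines, 0 passed limma's adjusted p, and 0 had an unadjusted p under 0.05. Of all 13641 genes tested this way 19.5% passed, 9.31% higher and 10.2% lower. SNAI2 had the lowest p, at 0.30 ± 0.526 on average (SD, n = 8 lines; limma adjusted p = 0.233), above 0 in 6 of 8 lines. The SNAI2 mean was 0.145 without NCIH1975, 0.118 with inverse variance weights and 0.057 in LUSC lines alone. TWIST1 had a mean of −0.21 ± 0.20 (n = 5 lines; limma adjusted p = 0.245), below 0 in 4 of 5. VIM had a mean of 0.13 ± 0.593 (n = 10 lines; limma adjusted p = 0.631, 95% interval −0.24 to 0.50) and was above 0 in 5 lines. Without NCIH1563 its mean was −0.004.

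The other means were 0.15 ± 0.473 for CDH1 (n = 7 lines; limma adjusted p = 0.555), −0.14 ± 0.376 for EPCAM (n = 8; adjusted p = 0.492) and −0.01 ± 0.598 for ESRP1 (n = 7; adjusted p = 0.971). ESRP2 had a mean of 0.05 ± 0.37 (n = 8 lines; limma adjusted p = 0.816), CDH2 of −0.001 ± 0.347 (n = 8; adjusted p = 0.996) and ZEB1 of −0.10 ± 0.258 (n = 5; adjusted p = 0.631). Lines without a value were left out of these fits. ZEB2, with 3 lines, was not tested. The 95% intervals of the 9 means reached from −0.48 for TWIST1 to 0.67 for SNAI2.

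Whether the change of a gene differed among lines was then tested with Cochran's Q statistic, which weighs each line by its deposited standard error. Here 7 of 10 members passed, against 57.9% of all 16877 genes tested. VIM had the largest Q, 151.9 over 10 lines (adjusted p = 1.71e-26), followed by CDH2 at 78.6 over 8 lines (adjusted p = 3.8e-13). ZEB2 had a Q of 57.6 over 3 lines (adjusted p = 3.94e-12) and CDH1 of 52.9 over 7 lines (adjusted p = 9.72e-09). The ZEB2 call rested on NCIH226 (adjusted p = 0.813 without it) and the CDH1 call on EBC1 (adjusted p = 0.0629 without it).

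ESRP1, ESRP2 and EPCAM passed with Q of 32.1, 27.5 and 26.1 (adjusted p = 6.01e-05, 0.000791 and 0.00132). Without NCIH1975, PC9 and NCIH522, the lines with the largest median standard errors, the adjusted p of ESRP1 was 0.081. SNAI2, TWIST1 and ZEB1 did not pass (adjusted p = 0.0515, 0.0777 and 0.558). SNAI2 passed when NCIH226, SKMES1, SW900 or NCIH1563 was left out (adjusted p = 0.0361, 0.0343, 0.0464 and 0.0386).

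The difference of LUAD from LUSC lines was tested by limma for the 7 members with values in at least 2 lines of each. None passed, and 0 had an unadjusted p under 0.05; of all 13142 genes tested 0.00% were called, with 894 at an unadjusted p under 0.05. SNAI2 had a mean of 0.71 in LUAD and 0.06 in LUSC lines, a difference of 0.65 (limma adjusted p = 0.733). Without NCIH1975 the difference was 0.31. For VIM the means were 0.30 and 0.02, with a 95% interval of the difference from −0.49 to 1.05. The median standard error of the members was 0.284 in LUAD and 0.099 in LUSC lines, so the subtype and the spread of its libraries cannot be told apart. Of the LUAD entries 3 of 22 were called, and of the LUSC entries 16 of 47, against 15.8% and 34.7% of all genes.

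The change of VIM was set beside the epithelial-mesenchymal ratio of the line. Over the 7 lines with CDH1, the log2 ratio of CDH1 to VIM and the VIM change had a Pearson r of −0.78 and a Spearman rho of −0.82. Without NCIH226 and LK2, the lines farthest from the median ratio, r was −0.68, and leaving out single lines gave −0.91 to −0.67. With the DMSO means that the table implies, r was −0.75. The ratio and the change share the VIM counts, so this is a description of 7 lines. NCIH1563, which had the largest VIM rise (1.35), had no value for CDH1 or EPCAM and is in neither ratio. Over all 10 lines the VIM level, which shares those counts too, and the VIM change had an r of 0.53. With the implied DMSO means it was 0.44. Without LK2 and PC9 these values were 0.37 and 0.17.

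For the ratio of EPCAM to VIM over 8 lines, r was −0.51 and rho −0.60. Without LK2 and SKMES1, r was −0.39, and −0.29 with the implied DMSO means. VIM stood above 0 in NCIH226, NCIH1975 and SKMES1, at the mesenchymal end of these ratios, and below 0 in EBC1, PC9 and LK2, at or above the middle of them. NCIH520 stood at 0.20, near the middle for CDH1 to VIM (log2 ratio −0.09). For EPCAM to VIM it had a log2 ratio of 2.04, above EBC1 at −0.30. SW900 and NCIH522, with log2 ratios of EPCAM to VIM of −3.31 and −3.79, stood below 0 as well. The ratio of CDH1 to VIM was also set beside the changes of 6 other members. For CDH1, EPCAM, ESRP1, ESRP2 and CDH2, r took both signs as single lines were left out, and for SNAI2 it ran from −0.66 to −0.21.

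**Figure D3:**
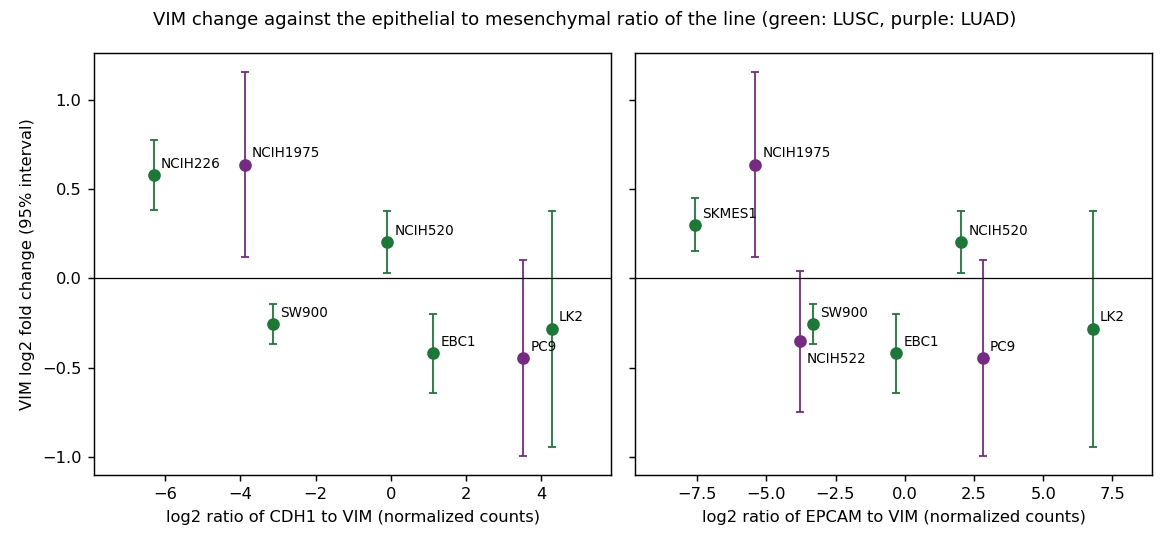
VIM log2 fold change with 95% interval (vertical axis) against the log2 ratio of CDH1 to VIM (left, 7 lines) and of EPCAM to VIM (right, 8 lines), 1 point per line. VIM lies above 0 in NCIH226 and NCIH1975 at the left of the first panel and below 0 in EBC1, PC9 and LK2 at its right.

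The genes whose change followed that of VIM most closely over the 10 lines were OSBPL8, a lipid transfer protein (Pearson r = 0.978), RPP30, a subunit of ribonuclease P (r = 0.943), and NPM1, a nucleolar chaperone (r = 0.941), among 8832 genes compared. All 3 were highest in NCIH1563, with fold changes of 0.81, 0.10 and 0.38 on the log2 scale in the authors' deposited table. These correlations are a description chosen as the highest of many.

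Wider lists of genes of each state were then counted. Of 44 epithelial junction and surface genes tested over the lines, MUC1, a membrane mucin, rose by 0.99 ± 0.853 (n = 10 lines; limma adjusted p = 0.0134) and CLDN3, a tight junction claudin, fell by 0.57 ± 0.495 (n = 8; adjusted p = 0.0308). The other 42 did not pass, so that 4.55% of the list passed against 19.5% of all genes, and the list's median was 0.09 against 0.01 over all genes. By line, 17 of 33 junction genes were higher in SKMES1 and 1 lower, and 20 of 44 were higher in SW900 and 2 lower. The shares of all genes called higher were 15.8% and 18.0% there. SKMES1 had CDH3, P-cadherin, at 1.275 and MUC1 at 2.02, while SW900 had PRSS8, a membrane serine protease, at 1.63 and S100A14 at 1.58 in the authors' deposited table. In EBC1, where CDH1 and EPCAM fell, 7 of 44 junction genes were higher and 10 lower, with 23.0% and 23.4% of all genes called so.

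Of 40 mesenchymal cytoskeleton, adhesion and matrix genes tested, 2 rose and 2 fell, which is 10% against 19.5% of all genes. THBS1, a matricellular glycoprotein, rose by 1.10 ± 0.83 (n = 9 lines; limma adjusted p = 0.00965). ACTA2, smooth muscle actin, fell by 0.70 ± 0.434 (n = 7; limma adjusted p = 0.0124) and TNC, the matrix protein tenascin C, by 0.89 ± 0.647 (n = 5; adjusted p = 0.0379). The other 36 did not pass, and the median was 0.17. By line, 19 of 37 were higher and 5 lower in NCIH1563 (all genes: 23.3% and 24.8%), with COL1A1 at 2.01 in the authors' deposited table.

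NCIH1975 had 12 of 39 higher and 1 lower (all genes: 4.33% and 3.58%). The authors' deposited table lists COL1A2 at 3.40 and CNN1, a smooth muscle calponin, at 2.46 there. NCIH226 had 17 of 44 higher and 7 lower (all genes: 15.5% and 15.8%), with FN1, fibronectin, at 3.62 and MMP2, a gelatinase, at 2.16 in the authors' deposited table. SKMES1, where many junction genes were higher, also had 17 of 42 mesenchymal genes higher, and 9 lower (all genes: 15.8% and 15.6%). In SW900, where VIM and CDH2 fell, 5 of 39 were higher and 13 lower (all genes: 18.0% and 17.7%). NT5E, the ectonucleotidase CD73, stood there at −1.53 and S100A4, a calcium-binding protein, at 1.64 in the authors' deposited table.

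**Figure D4:**
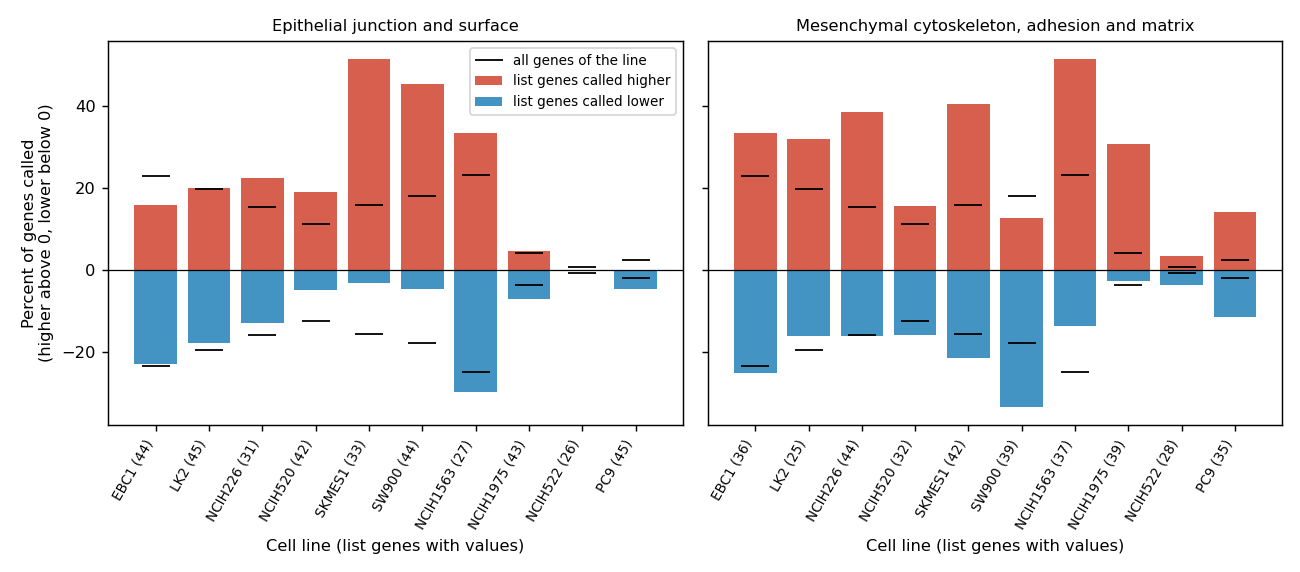
Percent of the genes of 2 lists called higher (red, above 0) and lower (blue, below 0) in each line, with the number of list genes with values in brackets and black dashes for the percent of all genes of the line. In SW900 20 of 44 junction genes were higher and 13 of 39 mesenchymal genes lower.

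Of 17 other transcription factors of the transition tested over the lines, 0 rose and 1 fell, which is 5.88% against 19.5% of all genes. SNAI1 (Snail), a close relative of SNAI2, rose by 3.28 ± 0.241 (DESeq2 adjusted p = 3.98e-40) in EBC1 in the authors' deposited table, and in 6 other lines lay between −0.16 and 0.60, not called. EBC1 was also the line in which CDH1, EPCAM, ESRP1 and VIM fell, and ID2 and ID3, inhibitors of basic helix-loop-helix factors, rose there by 4.69 and 4.504 (DESeq2 adjusted p = 3.59e-45 and 2.2e-16) in the authors' deposited table. TWIST2, the relative of TWIST1, fell by 1.93 ± 0.253 in NCIH1563, by 0.68 in SW900 and by 0.47 in SKMES1 (DESeq2 adjusted p = 8.06e-13, 0.0294 and 0.00498) in the authors' deposited table. Its mean over 6 lines was −0.64 ± 0.653 (limma adjusted p = 0.0809), below 0 in each. HMGA2, an architectural chromatin factor, fell by 0.48 ± 0.411 (n = 8 lines; limma adjusted p = 0.032), and the other 16 of the 17 factors tested did not pass.

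The epithelial transcription factors had 0 of 11 past the limma test (2 at an unadjusted p under 0.05), with FOXA2 at −0.61 in 6 lines. GRHL2, which maintains CDH1 and ESRP1 in epithelia, fell by 1.07 ± 0.331 (DESeq2 adjusted p = 0.0222) in NCIH1975, where EPCAM and ESRP1 fell, and rose by 0.26 (adjusted p = 0.00068) in LK2 in the authors' deposited table. OVOL2 rose by 0.50 in EBC1 (DESeq2 adjusted p = 0.00761) and stood at −0.95 in NCIH1975 (adjusted p = 0.098) in the authors' deposited table. MIR200CHG was called in 0 of 6 lines, with −0.60 in NCIH1975 and LK2 and 1.05 in SW900 in the authors' deposited table.

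Of 22 genes of TGF-beta signalling, 2 rose and 0 fell: SMAD7, an inhibitory SMAD, by 0.60 ± 0.48 and SKIL, a SMAD corepressor, by 0.58 ± 0.501 (n = 10 lines each; limma adjusted p = 0.012 and 0.0163). SKIL was above 0 in 10 of 10 lines. Of 13 ZEB corepressors and partners, CTBP1, a corepressor that ZEB factors recruit, fell by 0.21 ± 0.135 and WWTR1 (TAZ), a transcriptional coactivator, by 0.56 ± 0.584 (n = 10 lines each; limma adjusted p = 0.0305 and 0.0347). Of 13 splicing regulators and spliced targets tested, 0 passed the limma test and 0 had an unadjusted p under 0.05, with SRSF1 at −0.225, MBNL2 at 0.19, RBFOX2 at 0.175 and MBNL3 at 0.21. By list the shares that passed were 9.09%, 15.4% and 0%, against 19.5% of all genes.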

How the data were processed

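Libraries were made with a stranded mRNA kit and sequenced as paired reads of 151 bases, per the labels' protocols. Per the submitters' processing notes, the authors used FastQC, Salmon 0.12.0, GRCh38 and DESeq2 (version not stated), and per the labels genes were kept by an FPKM threshold of 1. Fold changes and their standard errors are deposited on a log2 scale. The authors' statistic, a score, differs from the quotient of these by at most 0.166. The deposited adjusted p-value was computed by the authors within each line. The deposited mean normalized counts, a signal with no length correction, sum to 57647556 to 108557964 per line. The table gives means over a line, so the depth of each library is unknown and no counting intervals are given.

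Levels are mean normalized counts per 1000000 of the line's sum. The limit for neighbouring levels is 1.96 times the root of the summed squared standard errors, divided by 2, and covers the spread between libraries only. Arm means assume 2 libraries per arm and a fold change equal to their ratio. Across lines, limma 3.58.1 (R 4.3.3) tested genes with values in at least 5 lines, and Cochran's Q those in at least 2, with Benjamini-Hochberg adjustment over all genes tested. On simulated data, the test of the mean recovered 52% of true changes when their size was 0.5 on the log2 scale, and 90% at 1. Cochran's Q recovered 70.5% at an SD between lines of 0.5, and the LUAD against LUSC test 85.5% at a difference of 2. False calls had a share of 4.05%, 7.24% and 5.71% in these 3 tests, in that order. For the mean and Q, far fewer genes were changed in the simulation than passed in the data (19.5% and 57.9%). The shares may therefore differ in the data. The simulated noise for Q followed the deposited standard errors, so its share of false calls cannot show whether those errors are too small. Since true changes were missed, a member that did not pass the mean or LUAD against LUSC test is not read as unchanged. Positions and UTRs are from GENCODE 29. Promoters of CDH2, VIM, ZEB1 and ZEB2 were searched. Those of CDH1, EPCAM, ESRP2 and TWIST1 were not matched in the RefSeq promoter table, and ESRP1 and SNAI2 were left out of the search beforehand. Figures used matplotlib 3.10.9.

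The members, lists and tests were chosen with earlier results of these data known. All members are named, with up to 4 genes per list by smallest p, up to 2 per list and line by largest called fold change, the 3 genes most like a member with values in all lines (mean normalized count of at least 100 in every line), and SNAI1, TWIST2, GRHL2 and CDH3. MIR200CHG, OVOL2, EPCAM-DT, VIM-AS1 and ZEB1-AS1 were named after their values were seen. Some genes that this rule selects are not reported here. Alternatives tried were other minimum numbers of lines, centring, weights, a random-effects meta-analysis, robust and trended variance, an expression filter, another scaling of levels, each subtype alone and leaving out each line. Leaving out NCIH1975, PC9 and NCIH522 from the means and counts of calls was added after the data were seen.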

Additional observations from a re-analysis of the deposited data

Results flagged for a closer look

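The change with GSK3368712 differed between lines for 7 members by Cochran's Q: VIM (adjusted p = 1.71e-26), CDH2 (3.8e-13), ZEB2 (3.94e-12), CDH1 (9.72e-09), ESRP1 (6.01e-05), ESRP2 (0.000791) and EPCAM (0.00132). Of all 16877 genes tested, 57.9% passed this test, so such a difference is not particular to the members. The Q result rested on NCIH226 for ZEB2 (adjusted p = 0.813 without it) and on EBC1 for CDH1 (adjusted p = 0.0629 without it).

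For 2 members a single line stood apart from the others by the size of a gap, which takes no account of standard errors. ZEB1 in NCIH1563 was the lowest of 5 lines, with a gap to the next line of 0.812 of the whole range. TWIST1 in LK2 was the highest of 5 lines, with a gap of 0.883 of the range, and LK2 had the highest TWIST1 level. Chance alone marks about 1 in 20 such groups. Neither value was called by the authors. The standard error of ZEB1 was 0.332 in NCIH1563 and 0.095 to 0.183 in its other lines. Cochran's Q, which weighs these errors, did not pass for ZEB1 or TWIST1 (adjusted p = 0.558 and 0.0777).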

How the results depend on the processing

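No paired analysis was possible because the deposited table holds no values per library, and for the same reason no single library could be left out. No member passed the test of the mean across lines in any alternative run. Small means changed sign. With inverse variance weights, CDH1 and ESRP2 each had −0.018. ESRP2 had −0.058 in the top 75% of genes by expression, and −0.13 in LUAD lines alone. LUAD lines alone gave 0.035 for ESRP1 and 0.281 for CDH2, and LUSC lines alone 0.013 for ZEB1. Leaving out each line gave means of −0.004 to 0.195 for VIM, −0.087 to 0.044 for CDH2, −0.148 to 0.168 for ESRP1 and −0.058 to 0.107 for ESRP2. Means that kept their sign ran from 0.145 to 0.394 for SNAI2, 0.048 to 0.254 for CDH1 and −0.19 to −0.021 for EPCAM. For TWIST1 and ZEB1, lines with their values could not be left out, since 5 were required. The LUAD minus LUSC difference of ESRP1 was −0.068 with weights. For SNAI2, leaving out each line gave a difference of 0.31 to 0.948. The same gave −0.028 to 0.281 for CDH1, −0.408 to 0.183 for EPCAM, −0.294 to 0.655 for ESRP1 and −0.075 to 0.524 for VIM. By Q, 6 to 8 members passed when a line was left out. TWIST1 passed without the 3 lines of largest standard error (adjusted p = 0.0492), and SNAI2 among genes with values in at least 5 lines (adjusted p = 0.0469). CDH2 in EBC1 was called lower with centred fold changes (adjusted p = 0.049).

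When calls also had to reach 1 on the log2 scale in size, 2 entries were called higher and 1 lower, in place of 7 and 12. Among genes with values in all 10 lines, 2 junction genes rose and 0 fell, 0 mesenchymal genes rose and 0 fell, and 0 of the other transcription factors fell, with fewer genes tested (17, 13 and 8). Standard errors were up to 0.513 for the members. At that error even the 1.39 of SNAI2 in NCIH1975 was not called (DESeq2 adjusted p = 0.073), so large changes could be missed in such entries.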

Other observations

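Non-coding transcripts beside the members were looked at after their values were seen. EPCAM-DT, a transcript that starts near EPCAM on the opposite strand (GRCh38 chromosome 2, 47192405 to 47345074), rose by a mean of 1.10 ± 0.789 on the log2 scale (n = 7 lines; limma adjusted p = 0.016) and was above 0 in 7 of 7 lines. The authors' deposited table gives 2.00 in LK2, 1.87 in SW900, 1.52 in EBC1 and 1.45 in NCIH1975, each called, and 0.51 in NCIH522, 0.25 in NCIH520 and 0.12 in PC9, not called. Its mean normalized counts were 42 to 290, far below those of EPCAM. EPCAM itself fell in EBC1 and NCIH1975. Whether the counting used strand is not given in the sources used here.

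VIM-AS1, which overlaps the start of VIM on the opposite strand, had values in 6 lines. In the authors' deposited table VIM-AS1 stood at 1.21 in NCIH1563 and −0.71 in EBC1, both called, at 0.71 in SKMES1, 0.30 in NCIH1975, −0.46 in NCIH226 and −0.515 in SW900. The sign matched that of VIM in 5 of 6 lines, NCIH226 being the exception, and without strand the reads of the 2 genes cannot be told apart. ZEB1-AS1 had values in 9 lines, among them 4 without a ZEB1 value, with a mean of 0.28 ± 0.54 (limma adjusted p = 0.25).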
